A study of Mus musculus with 8 samples.

Results

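Lsp1, Arl5c and Tmem204 are little-studied genes, measured here in RNA of brain cells enriched for CD11b. They are described together with Arl5a and Arl5b, the paralogs of Arl5c. Lsp1 and Arl5c (higher) and Tmem204 (lower) were chosen because their adjusted p was low and no control mouse overlapped with a CSF1 OE mouse, with no numeric limit set on either. Arl5a and Arl5b were added by family name. The 5 genes are part of 20308 in the count files, and all 5 were among the 13407 genes with enough counts to be tested. The values of Lsp1, Arl5c and Tmem204 are therefore a description of the comparison that chose them, while Arl5a and Arl5b were not chosen by their values.

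RNA was sequenced from cells that magnetic beads against CD11b, a surface integrin of microglia and other myeloid cells, pulled from the right brain hemisphere of mice aged 14 or 15 days. CSF1 OE mice carry a transgene for the secreted form of CSF1, a growth factor of microglia and macrophages, which the TRE/tTA system drives in a subset of GFAP+ cells. The other group was the control for this over-expression, whose own alleles are not given in the sources used here, and all mice were F1 offspring of C57Bl/6 and CD1. There were 4 mice a genotype and 1 library a mouse, with animal numbers 1827, 1872, 1874 and 1934 for the control and 1931, 1932, 1936 and 2019 for CSF1 OE. The sex of the mice is not given in these sources.

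Lsp1 encodes a protein of leukocytes that binds filamentous actin and is phosphorylated by MK2, a kinase downstream of p38. Arl5a, Arl5b and Arl5c are small GTPases of the Arf-like family. Arl5 proteins are known from the trans-Golgi, where Arl5b recruits tethers for vesicles that return from endosomes. Tmem204 encodes a claudin-like membrane protein that is known mostly from endothelial cells, where it affects cell adhesion.

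Since reads of related genes can be assigned to the wrong one, the start of the Arl5 coding sequences is shown for how far the 3 genes differ. These are the first 180 aligned bases, 5′ to 3′, from the annotated transcripts of build GRCm38, and capitals mark each position at which the 3 genes do not all share a base. The stretch of Arl5b begins at coding base 4, since its annotated coding sequence is longer by 1 codon at the start.
Arl5a: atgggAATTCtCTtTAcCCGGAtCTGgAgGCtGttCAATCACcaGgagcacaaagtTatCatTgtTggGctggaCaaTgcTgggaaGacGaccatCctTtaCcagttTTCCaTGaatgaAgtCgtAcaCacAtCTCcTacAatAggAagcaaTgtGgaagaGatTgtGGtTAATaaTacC
Arl5b: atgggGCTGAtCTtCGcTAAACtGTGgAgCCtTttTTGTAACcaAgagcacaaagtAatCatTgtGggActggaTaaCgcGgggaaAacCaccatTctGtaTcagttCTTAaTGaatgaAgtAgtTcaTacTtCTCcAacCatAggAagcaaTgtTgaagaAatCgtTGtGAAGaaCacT
Arl5c: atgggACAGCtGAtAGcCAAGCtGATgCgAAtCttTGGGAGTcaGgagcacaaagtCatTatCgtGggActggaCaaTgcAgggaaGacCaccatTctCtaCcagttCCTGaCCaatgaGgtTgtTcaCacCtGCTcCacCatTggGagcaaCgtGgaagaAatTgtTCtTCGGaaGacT

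All 3 genes shared 108 of these 180 bases. Arl5c had 37 bases unlike both others, Arl5a had 34 and Arl5b had 25. Over the whole coding sequence, Arl5a and Arl5b were identical at 72.2% of aligned positions, Arl5b and Arl5c at 69.3%, and Arl5a and Arl5c at 66.1%. The longest run of identical bases between any pair of their transcripts was 15 bases, between Arl5b and Arl5c. Counts per gene were estimates that need not be whole, and the estimate for Arl5c was not whole in 7 of 8 libraries, as was that for Arl5b, so some reads were assigned in part, with the other genes involved not analysed here.

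All 5 genes have their place in build GRCm38. Lsp1 lies on chromosome 7 from 142460809 to 142494867 on the plus strand, with 12 annotated transcripts and 330 codons in the main one. Arl5c lies on chromosome 11 from 97989578 to 97996181 on the minus strand, with 6 exons and 179 codons. Arl5a (chromosome 2, 52397951 to 52424901, minus strand) and Arl5b (chromosome 2, 15049395 to 15082456, plus strand) sit on the same chromosome. Tmem204 lies on chromosome 17 from 25057702 to 25083591 on the minus strand and has 3 exons and 226 codons.

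The libraries held between 12053280 and 15475488 counts. A gene was called when the Benjamini-Hochberg adjusted p of edgeR's quasi-likelihood test over all genes tested was under 0.05 and the fold was under 0.7 or over the reciprocal of 0.7, rounded up. By this rule 52 genes, or 0.388% of those tested, were higher in CSF1 OE mice, and 7, or 0.0522%, were lower. For 10.3% of genes tested the genotypes did not overlap, with CSF1 OE mice higher for 6.84% and lower for 3.45%. An unadjusted p under 0.05 was found for 16.5% of genes tested. DESeq2 called 3.09% of them, limma 0.776%, and edgeR with animal number range as a term 9.5%. Over all genes tested the median change was -0.034 on the log2 scale. Csf1 itself had a log2 fold change of 0.19 with a standard error of 0.33 and an adjusted p of 0.796 by edgeR, in cells that the transgene does not target.

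Lsp1 was 2.5 times as high in CSF1 OE mice. Values as CPM, the counts scaled to the same library size in all mice, were 37.0, 37.3, 30.2 and 43.8 in control mice 1827, 1872, 1874 and 1934. They were 111, 96.4, 88.8 and 76.7 in CSF1 OE mice 1931, 1932, 1936 and 2019 in turn. The lowest CSF1 OE mouse was above the highest control, which was mouse 1934. The means were 37.1 ± 5.52 CPM (SD, n = 4) and 93.2 ± 14.3 CPM (SD, n = 4). The log2 fold change was 1.33 with a standard error of 0.14 and an adjusted p of 0.0111 by edgeR, and by size it was the 15th of the 52 genes called higher. With 1 mouse left out, the adjusted p of Lsp1 passed 0.05 without control 1872 (0.0811), control 1874 (0.0671) or CSF1 OE mouse 1931 (0.0506). Over all genes tested, these omissions left 3, 3 and 4 calls in place of 59. The log2 fold change of Lsp1 stayed between 1.24 and 1.4299 over all omissions.

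Arl5c was 3.1 times as high in CSF1 OE mice. It measured 12.7, 10.2, 9.15 and 10.2 CPM in control mice 1827, 1872, 1874 and 1934, and 38.9, 24.7, 37.8 and 31.0 CPM in CSF1 OE mice 1931, 1932, 1936 and 2019. CSF1 OE mouse 1932 had the smallest value of its genotype and still stood clear of every control. The means were 10.6 ± 1.503 CPM (SD, n = 4) and 33.1 ± 6.62 CPM (SD, n = 4). The log2 fold change was 1.64 with a standard error of 0.17 and an adjusted p of 0.0111 by edgeR, the 10th in size of the genes called higher. Arl5c had the fewest counts of the 5 genes, from 121 to 555 a library. Its adjusted p passed 0.05 when mouse 1872 (0.0811), 1874 (0.0671) or 1931 (0.0572) was left out, at log2 fold changes between 1.56 and 1.76 over the 8 omissions.

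Tmem204 was lower in CSF1 OE mice, with 48.7% less than the controls. Control mice 1827, 1872, 1874 and 1934 had 66.6, 70.8, 60.2 and 54.9 CPM, and CSF1 OE mice 1931, 1932, 1936 and 2019 had 29.6, 30.6, 38.6 and 30.6 CPM. Mouse 1936 was the highest of the CSF1 OE mice, and the other 3 lay close together, all of them below every control. The means were 63.1 ± 6.996 CPM (SD, n = 4) and 32.3 ± 4.19 CPM (SD, n = 4), with a log2 fold change of -0.96, a standard error of 0.12 and an adjusted p of 0.0271 by edgeR. It was the 5th largest fall of the 7 genes called lower. The call was the least firm of the 3. It was lost without mouse 1872 (adjusted p = 0.132), 1874 (0.0961), 1931 (0.108) or 1932 (0.0548). Over all genes tested, these omissions left 3, 3, 4 and 18 calls in place of 59. The log2 fold change of Tmem204 ran from -1.05 to -0.90 over all omissions.

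**Figure D1:**
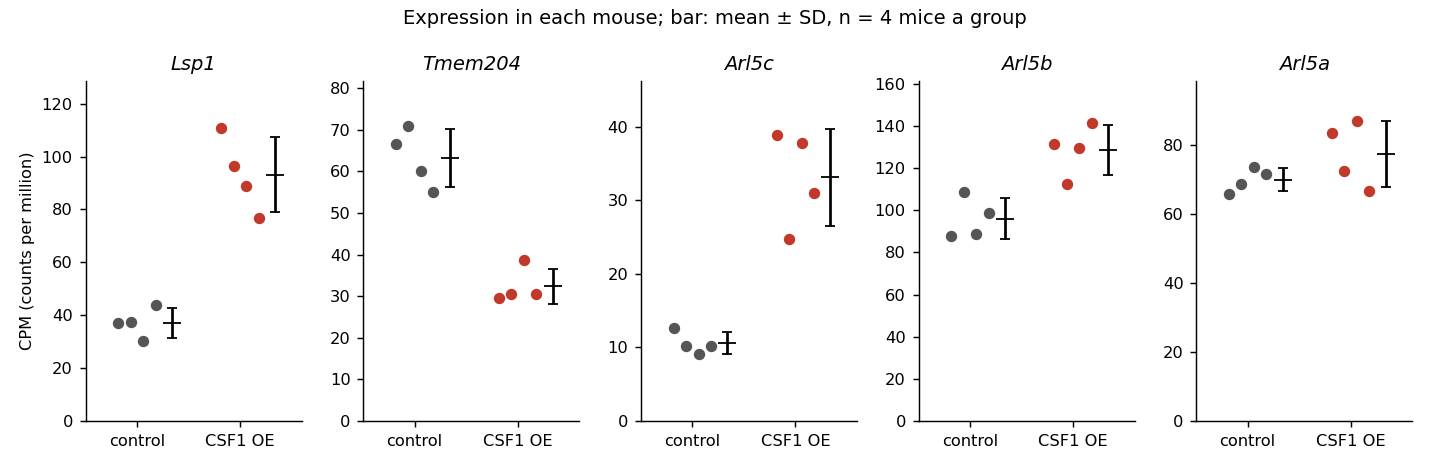
CPM (vertical axes, each from 0) of Lsp1, Tmem204, Arl5c, Arl5b and Arl5a in each of 4 control and 4 CSF1 OE mice, 1 point a mouse in the order of animal numbers, with the mean and SD beside each group. The genotypes do not overlap for Lsp1, Tmem204, Arl5c and Arl5b and do for Arl5a.

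The paralogs were measured as a comparison that the choice of Arl5c did not fix. Arl5b measured 87.8, 109, 88.8 and 98.9 CPM in control mice 1827, 1872, 1874 and 1934 and 131, 113, 130 and 141 CPM in CSF1 OE mice 1931, 1932, 1936 and 2019. No control reached a CSF1 OE mouse, but control 1872 and CSF1 OE mouse 1932 were only 3.78 CPM apart. The means were 96.1 ± 9.90 CPM (SD, n = 4) and 129 ± 11.9 CPM (SD, n = 4), and the log2 fold change was 0.42 with a standard error of 0.10. Arl5b was not called, as its adjusted p by edgeR was 0.0899 and its fold was within the limits of the call. DESeq2 gave it an adjusted p of 0.00717, again at a fold within those limits.

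Arl5a gave no call. It measured 65.8, 68.7, 73.5 and 71.6 CPM in control mice 1827, 1872, 1874 and 1934 and 83.4, 72.4, 86.9 and 66.6 CPM in CSF1 OE mice 1931, 1932, 1936 and 2019. CSF1 OE mouse 2019 lay among the controls and mouse 1932 just under the highest of them. The means were 69.9 ± 3.34 CPM (SD, n = 4) and 77.3 ± 9.44 CPM (SD, n = 4). The log2 fold change was 0.15 with a standard error of 0.096 and an adjusted p of 0.479 by edgeR.

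Among themselves, the Arl5 genes divided their counts differently in the genotypes. Arl5c took 6.02% ± 1.08 (SD, n = 4) of the Arl5 counts in control mice and 13.7% ± 1.66 (SD, n = 4) in CSF1 OE mice. By mouse, the share of Arl5c was 7.63%, 5.45%, 5.34% and 5.66% in control mice 1827, 1872, 1874 and 1934 and 15.3%, 11.8%, 14.9% and 12.96% in CSF1 OE mice 1931, 1932, 1936 and 2019. Every CSF1 OE mouse gave Arl5c a larger share than any control did. As Arl5c was chosen for higher counts without overlap, and Arl5a and Arl5b changed less, this was largely fixed by that choice. Arl5b kept the largest share in both genotypes, at 54.3% ± 2.72 and 53.9% ± 3.67 (SD, n = 4 each), and that of Arl5a was 39.7% ± 2.56 and 32.4% ± 3.06.

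The shares depend on length, since Arl5a and Arl5b have long annotated transcripts of 5239 and 6981 bases and Arl5c has one of 1571 bases. Divided by transcript length, the share of Arl5c was 19.9% ± 2.97 in control and 38.5% ± 3.28 in CSF1 OE mice. On this scale Arl5b and Arl5a took 40.6% and 39.5% in control mice, and 34.2% and 27.3% in CSF1 OE mice. Arl5c thus had the largest mean share in CSF1 OE mice. Divided by coding length, which is nearly equal in all 3, the share of Arl5c was 6.04% and 13.8%. Summed over the family, Arl5 genes measured 177 ± 9.59 CPM (from 166 to 188) in control and 239 ± 20.9 CPM (from 210 to 255) in CSF1 OE mice.

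**Figure D2:**
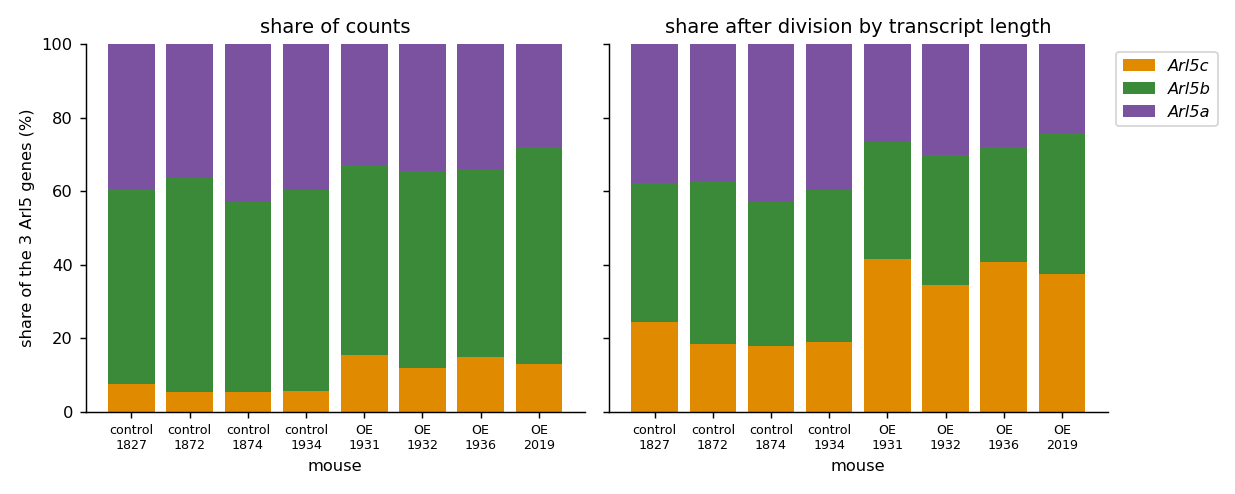
Share (vertical axis, percent) of Arl5a, Arl5b and Arl5c in their sum in each of the 8 mice (horizontal axis), from counts on the left and after division by transcript length on the right. On the left the share of Arl5c lies between 5.34% and 7.63% in the control mice and between 11.8% and 15.3% in the CSF1 OE mice.

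Compared per kilobase of transcript, the order of the 5 genes differed between the genotypes. In control mice Tmem204 had the highest level, 34.2 ± 3.79 CPM per kilobase, followed by Lsp1 at 19.4 ± 2.89. Arl5b at 13.8 ± 1.42 and Arl5a at 13.3 ± 0.637 CPM per kilobase did not differ beyond their spread, and Arl5c was the lowest at 6.73 ± 0.957. In CSF1 OE mice Lsp1 was the highest at 48.8 ± 7.48 CPM per kilobase. Arl5c at 21.1 ± 4.22, Arl5b at 18.5 ± 1.70, Tmem204 at 17.5 ± 2.27 and Arl5a at 14.8 ± 1.80 CPM per kilobase followed, and in that order each lay within overlapping SDs of the next. Among tested genes with a known length, the level of Lsp1 lay at percentile 73.9 in control and 89.9 in CSF1 OE mice, that of Arl5c at 45.1 and 75.5, and that of Tmem204 at 85.9 and 70.8.

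**Figure D3:**
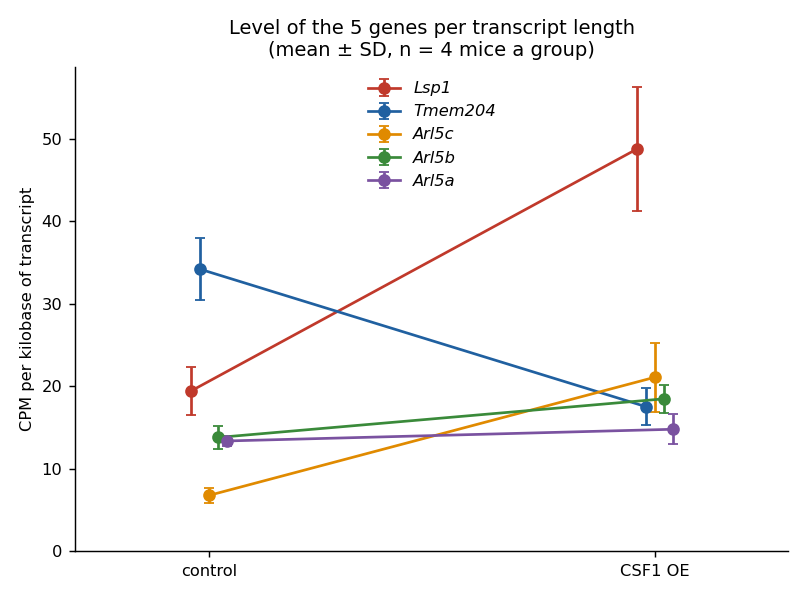
CPM per kilobase of the longest complete coding transcript (vertical axis, from 0), mean and SD over 4 mice, in control and CSF1 OE mice. Tmem204 is highest in control mice at 34.2 and Lsp1 is highest in CSF1 OE mice at 48.8.

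The wider family of Arf and Arl GTPases, which steer vesicle traffic and cilia, held 24 further tested genes. Of these 1 was called, beside the background of 0.44% of all genes tested in either direction. This was Arl11, an Arf-like GTPase expressed in macrophages. It measured 13.8, 12.1, 11.6 and 9.23 CPM in control mice 1827, 1872, 1874 and 1934 and 27.2, 22.1, 22.01 and 28.8 CPM in CSF1 OE mice 1931, 1932, 1936 and 2019, so the genotypes did not overlap. Its log2 fold change was 1.096 with a standard error of 0.16 and an adjusted p of 0.0391 by edgeR. The call of Arl11 was lost in 6 of 8 omissions of a mouse. These were 1872 (adjusted p = 0.171), 1874 (0.169), 1934 (0.0603), 1931 (0.145), 1932 (0.0548) and 1936 (0.105). Over all genes tested, these omissions left 3, 3, 10, 4, 18 and 8 calls in place of 59. The log2 fold change of Arl11 lay between 1.01 and 1.19 over all 8. The median of the list was 0.085 on the log2 scale. Arl4d had the lowest value, -0.58 with a standard error of 0.32 and an adjusted p of 0.395.

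Partners of Arl5 proteins and other traffic genes of the trans-Golgi were near the middle of all genes. The list holds GARP and related tether subunits, the AP-4 coat, golgins and SNAREs, and not every gene in it is a known Arl5 partner. None of the 20 tested genes was called by edgeR, 2 had an unadjusted p under 0.05, and DESeq2 and limma called 0. Over all genes tested these shares were 0.44%, 16.5%, 3.09% and 0.776%. Their median log2 fold change was -0.012. The highest was Tgoln1, a membrane protein that cycles through the trans-Golgi, at 0.32 with a standard error of 0.088 and an adjusted p of 0.131. The lowest was Golga1, a golgin, at -0.21 with an adjusted p of 0.385.

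Genes of the leukocyte cortical actin cytoskeleton, to which Lsp1 binds, lay mostly above 0. None of the 37 tested genes was called by edgeR, but 20 had an unadjusted p under 0.05, beside 16.5% of all genes tested. DESeq2 called 4 (Arpc5, Capg, Cfl1 and Tmsb4x), beside 3.09% of all genes, and limma 1 (Arpc5), beside 0.776%. Without control 1827 edgeR called 2, and with animal number range as a term it called 13, beside 9.5% of all genes. The genotypes did not overlap for 9, each with CSF1 OE mice higher, which is 24.3% of the list beside 6.84% of all genes tested. The fitted change was above 0 for 31 of 37, beside 44.8% of all genes tested, and the median log2 fold change was 0.30. Capg, which caps actin filaments, had the highest value at 0.90 with a standard error of 0.20 and an adjusted p of 0.0739. Gsn, which severs filaments, had the lowest at -0.71 with a standard error of 0.30 and an adjusted p of 0.286. Arpc5, a subunit of the Arp2/3 complex, and Cfl1, which encodes cofilin, came nearest to a call in this list, with log2 fold changes of 0.58 (adjusted p = 0.0524) and 0.56 (adjusted p = 0.0558). These 2 were singled out after their values were seen.

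Genes of the p38 and MK2 pathway, which holds the kinases that act on Lsp1, gave no call. None of the 9 tested genes of the p38 and MK2 list was called by edgeR, and 1 had an unadjusted p under 0.05. DESeq2 and limma called 0. The shares over all genes tested were 0.44%, 16.5%, 3.09% and 0.776%. The list includes Hspb1, Dusp1 and Zfp36, which are not kinases, and its median log2 fold change of -0.15 was the value of Dusp1. Map2k3, an activator of p38, had the highest value at 0.46 with an adjusted p of 0.318, and Hspb1, a heat shock protein that MK2 phosphorylates, the lowest at -0.85 with a standard error of 0.84. Mapkapk2, which encodes MK2, averaged 213 ± 36.1 CPM in the control and 282 ± 56.6 CPM in the CSF1 OE mice (SD, n = 4 each), at an adjusted p of 0.263. Its log2 fold change was 0.40. The other tested kinases beside Map2k3 were Mapkapk3 at 0.10, Mapk14 at -0.056, Map2k6 at -0.19 and Mapk11 at -0.22.

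Claudin-like membrane proteins, the relatives of Tmem204, included 13 tested genes and no call by edgeR. An unadjusted p under 0.05 was found for 3, beside 16.5% of all genes tested. DESeq2 and limma each called 1, Emp3, beside 3.09% and 0.776% of all genes. Their median log2 fold change was -0.39, and 12 of 13 fitted changes were below 0. The median was -0.10 without control 1934 and -0.68 with animal number range as a term. The exception was Emp3, an epithelial membrane protein, at 36.9, 28.4, 27.2 and 23.4 CPM in control mice 1827, 1872, 1874 and 1934 and 85.2, 51.7, 49.9 and 79.0 CPM in CSF1 OE mice 1931, 1932, 1936 and 2019. Emp3 thus gave no overlap of the genotypes, at a log2 fold change of 1.198 with a standard error of 0.21 and an adjusted p of 0.0524. Cldn5, the main claudin of brain endothelium and also in the endothelial list, had the lowest value at -0.70 with a standard error of 0.32 and an adjusted p of 0.312.

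**Figure D4:**
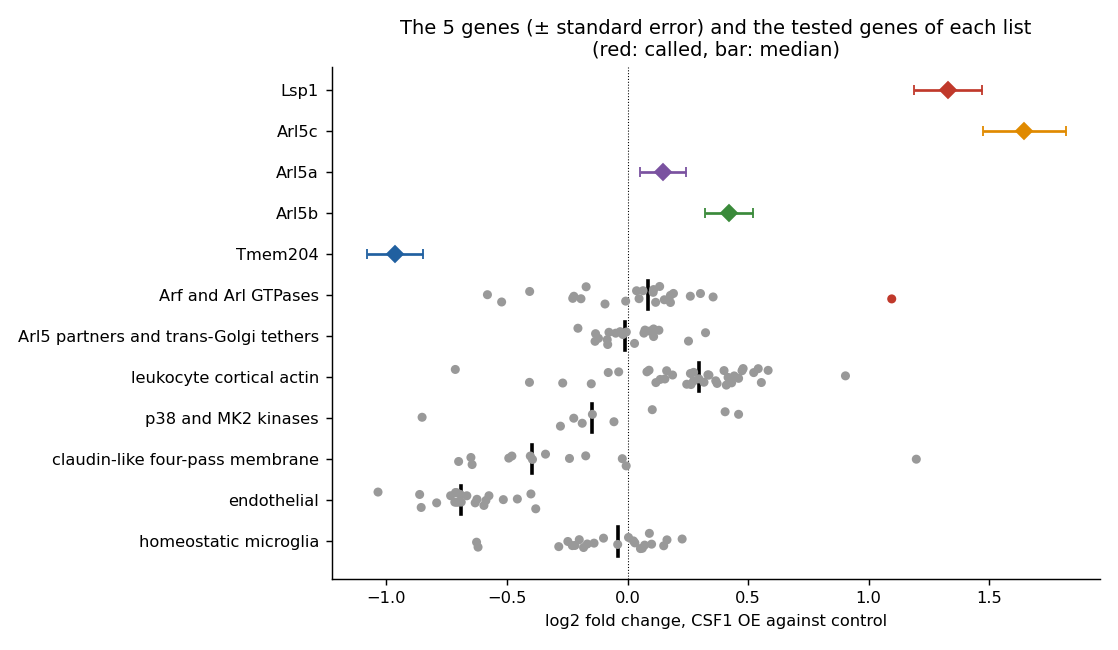
Log2 fold change, CSF1 OE against control (horizontal axis), of Lsp1, Arl5c, Arl5a, Arl5b and Tmem204 with standard errors, and below them 1 point for each tested gene of 7 lists, red where called, with a bar at the list's median. The only red point is Arl11, the actin list lies mostly above 0 with a median of 0.30, and all 22 endothelial markers lie below 0.

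Markers of endothelial cells were fitted in the same direction as Tmem204. All 22 were fitted below 0, with a median log2 fold change of -0.69, while 44.8% of all genes tested were fitted above 0. None was called by edgeR or limma, 10 had an unadjusted p under 0.05, and DESeq2 called 3 (Vwf, Podxl and Ly6c1), beside 16.5% and 3.09% of all genes tested. The genotypes did not overlap for 5 of 22, each with CSF1 OE mice lower, which is 22.7% beside 3.45% of all genes tested, led by Vwf at -1.03 with an adjusted p of 0.0642. None of the 22 was at 0 in every library. In bulk RNA, fewer cells of a type and less RNA per cell cannot be told apart.

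The summed level of the endothelial markers was 1914, 2126, 2939 and 3003 CPM in control mice 1827, 1872, 1874 and 1934 and 1569, 1678, 2051 and 978 CPM in CSF1 OE mice 1931, 1932, 1936 and 2019. These sums overlapped between the genotypes, with CSF1 OE mouse 1936 above control 1827. With the mean log2 CPM of the endothelial markers as a covariate, Tmem204 had a log2 fold change of -0.96. Its standard error was 0.15 and its adjusted p 0.0409 by edgeR. With the same covariate Lsp1 was at 1.45, and Arl5a had 0.30 in place of 0.15. Tmem204 and Lsp1 were chosen by this contrast and the markers were fitted lower in CSF1 OE mice. This fit therefore cannot tell genotype from endothelial level, and the part of endothelial cells in these results was not tested.

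**Figure D5:**
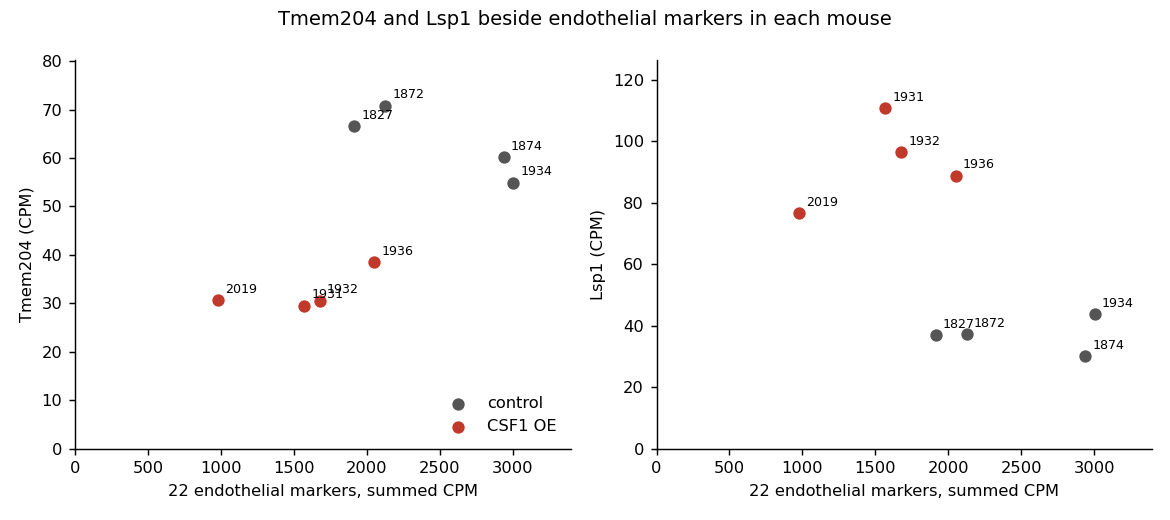
CPM of Tmem204 (left) and Lsp1 (right) against the summed CPM of 22 endothelial markers (horizontal axes) in each mouse, labelled by animal number. The endothelial sums run from 1914 to 3003 CPM in control and from 978 to 2051 CPM in CSF1 OE mice, and both genes were chosen for having no overlap of the genotypes.

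Markers of homeostatic microglia, the main cells of the enrichment, summed to between 33948 and 59613 CPM in control and between 42497 and 59422 CPM in CSF1 OE mice. None of the 23 was called by edgeR, 1 had an unadjusted p under 0.05 and DESeq2 called 1 (Fcrls). Over all genes tested these shares were 0.44%, 16.5% and 3.09%. The genotypes overlapped for all 23, while 10.3% of all genes tested had no overlap. The median log2 fold change was -0.041. Of 13 tested border macrophage markers 0 were called by edgeR, 9 had an unadjusted p under 0.05 and DESeq2 called 4, beside 16.5% and 3.09% of all genes tested. Their sum was 3091 to 4237 CPM in control and 2216 to 3354 CPM in CSF1 OE mice. The median for border macrophages was -0.47 on the log2 scale, and 12 of 13 were fitted below 0. Of all genes tested 44.8% were fitted above 0. The genotypes did not overlap for 2 with CSF1 OE mice lower and for 1 with them higher. That is 23.1% of the list beside 10.3% of all genes tested. Blood leukocyte markers, of cells that also express Lsp1, summed to between 78.0 and 154 CPM in control and between 53.7 and 284 CPM in CSF1 OE mice. Of these 12 of 23 could be tested, and Ncr1 and Pax5 were at 0 in every library. Of the tested ones 0 were called by edgeR, 2 had an unadjusted p under 0.05 and DESeq2 called 1 (Plac8). All genes tested gave 0.44%, 16.5% and 3.09%. The tested markers had a median of 0.23 on the log2 scale. The genotypes did not overlap for 2, each with CSF1 OE mice higher, which is 16.7% beside 6.84% of all genes tested. A scarce gene can pass the count filter through the CSF1 OE mice alone, which favours this direction. The share is therefore a description only. Plac8, found in monocytes and other leukocytes, measured 7.28 ± 3.58 CPM in the control and 23.7 ± 11.4 CPM in the CSF1 OE mice (SD, n = 4 each), with an adjusted p of 0.0948. Klrb1c, a receptor of natural killer cells, was at 0.430 ± 0.178 and 1.25 ± 0.535 CPM, with an adjusted p of 0.134.

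With the mean log2 CPM of the tested blood leukocyte markers as a covariate, all 3 of Lsp1, Arl5c and Tmem204 were called again, in the same mice that chose them. The medians of the lists for mural cells, astrocytes, oligodendrocyte lineage and neurons were -0.10, -0.22, -0.33 and -0.42. In each 0 were called by edgeR or DESeq2, beside 0.44% and 3.09% of all genes tested. They held 1, 1, 0 and 0 genes at an unadjusted p under 0.05, beside 16.5% of all genes tested. The part of blood leukocytes, of border macrophages and of these last lists in the results was not tested.

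Animal numbers 1931 to 1936 held 1 control and 3 CSF1 OE mice, and the other numbers held 3 control and 1 CSF1 OE mouse. Within the first range Lsp1 was 43.8 CPM in the control and 88.8 to 111 CPM in the CSF1 OE mice, and in the others it was 30.2 to 37.3 CPM against 76.7 CPM. For Arl5c the first range gave 10.2 against 24.7 to 38.9 CPM and the others 9.15 to 12.7 against 31.0 CPM. For Tmem204 they gave 54.9 against 29.6 to 38.6 CPM and 60.2 to 70.8 against 30.6 CPM. As these 3 genes were chosen for having no overlap, their direction within the ranges was fixed by that choice. Arl5b was 98.9 against 113 to 131 CPM and 87.8 to 109 against 141 CPM, also higher in each. Arl5a was 71.6 against 72.4 to 86.9 CPM in the first range, while in the others the CSF1 OE mouse, at 66.6 CPM, lay within the controls at 65.8 to 73.5 CPM.

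Neighbouring genes were read because libraries of this kit do not keep the strand. Tmem204 lies within Ift140, a gene for a transport protein of cilia on the opposite strand, and the annotated exons of the pair share 0 bases. Ift140 averaged 46.4 ± 5.67 CPM in the control mice and 47.3 ± 5.33 CPM in the CSF1 OE mice (SD, n = 4 each), which is 0.028 on the log2 scale and an adjusted p of 0.922. Beside Tmem204, Telo2 was at 0.028 with an adjusted p of 0.923, and Cramp1l at -0.27 with an adjusted p of 0.207, without overlap of the genotypes. Arl5b overlaps Nsun6, an RNA methyltransferase gene on the opposite strand, again with 0 exonic bases shared, and Nsun6 was at 0.040 with an adjusted p of 0.901.

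Of the nearest counted genes beside the others, none that could be tested was called. Arl5c lies between Plxdc1, at a log2 fold change of 0.34 with an adjusted p of 0.394, and Cacnb1, at -0.64 with an adjusted p of 0.330. Beside Lsp1, Tnni2 was at 0.29 with an adjusted p of 0.468, and Tnnt3 had only 1 to 4 counts a library and was not tested. Beside Arl5b, Cacnb2, which encodes a calcium channel subunit, was at 0.74 with an adjusted p of 0.131 and no overlap of the genotypes, and Plxdc2 at 0.0081. Beside Arl5a, Cacnb4 was at -0.46 with an adjusted p of 0.586, and Neb was not tested.

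After the mean of each genotype was removed from log2 CPM, Pearson's r between pairs of the 5 genes ran from -0.26 (Lsp1 and Tmem204) to 0.39 (Arl5c and Arl5a) over the 8 libraries. The genes most like Lsp1 by this measure were Tstd3 (r = 0.98), Rabl5, Gm5458, Ndufs6 and Eri3. For Arl5c they were Scube3 (r = 0.96), Krtcap2, Qars, Cd83 and Micu2, and for Tmem204 Fbxo8 (r = 0.98), Chrac1, Ttc8, Ldb1 and Epm2a. For Arl5a they were Ppp2r2d (r = 0.99), Lims2, Tinagl1, Ctnnbip1 and Timm8a1, and for Arl5b Sfxn2 (r = 0.93), Fam65b, Lig3, Il1rl2 and Eps8. These are the highest of 10920 genes over only 8 libraries that share their depth and preparation, and they are given as a description.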

How the data were processed

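Libraries of CD11b+ cells came from 8 mice, 4 a genotype and 1 library a mouse, and groups were taken from the genotype codes in the sample titles. The authors aligned reads and deposited expected counts per gene for each library. The submitters' processing notes name bcl2fastq 1.8.4, Bowtie 1.0.0, RSEM 1.2.7 and build mm10. The annotation and strand setting are not given in the sources used here. The authors also deposited normalized values in a further table, on a signal scale like that of the counts, which served for 1 alternative.

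Expected counts were rounded and fitted over all genes in R 4.3.3 with edgeR 4.0.16 (TMM, filterByExpr, glmQLFit and glmQLFTest). CPM used TMM library sizes, and log2 CPM a prior count of 2. The script was tested on simulated data. EBSeq, which the study used, was not run. DESeq2 1.42.0 and limma 3.58.1 served as alternatives, as did other filters and scalings, terms for animal number, endothelial and blood markers, and the omission of each mouse. A floor of 3 counts was 0.194 to 0.249 CPM, for counting error only. Gene models were those of GENCODE on GRCm38. The members and lists were chosen with earlier results of these data known. Named were the members, called genes of a list and the highest and lowest of the first 5 lists, overlapping or nearest genes, and the 5 genes most like each member.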

Additional observations from a re-analysis of the deposited data

Results flagged for a closer look

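Of 16 groups of 4 mice examined (CPM of the 5 genes and shares of the Arl5 genes), 2 held a mouse far from the other 3 by Dixon's ratio, and chance flags about 1 in 20 groups. Tmem204 measured 38.6 CPM in CSF1 OE mouse 1936, where the other CSF1 OE mice had 29.6 to 30.6 CPM. The value is still below every control. Arl5c took 7.63% of the Arl5 counts in control mouse 1827, where the other controls had 5.34% to 5.66%. This share is below that of every CSF1 OE mouse.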

How the results depend on the processing

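Lsp1, Arl5c and Tmem204 kept their direction in all 17 alternatives and their calls in all 9 that left out no mouse. Since the 3 genes were chosen in these same mice for a low adjusted p and no overlap, this was largely fixed by the choice. The log2 fold changes over those 9 ran from 1.15 to 1.45 for Lsp1, from 1.61 to 1.65 for Arl5c and from -0.98 to -0.92 for Tmem204, and the omissions gave 1.24 to 1.4299, 1.56 to 1.76 and -1.05 to -0.90. Without a mouse the adjusted p ranged from 0.0152 to 0.0811, from 0.00828 to 0.0811 and from 0.0267 to 0.132. Arl5b and Arl5a were called in no alternative, at 0.34 to 0.49 and 0.061 to 0.30. Over all genes tested, 59 were called, against 414 by DESeq2, 104 by limma on normalized values, 1273 with animal number range as a term, 125 with the endothelial covariate, 19 with upper-quartile scaling and 3 to 164 with 1 mouse omitted. With the animal number range as a term there were 2 called Arf and Arl genes at a median of 0.18, and 13 called actin and 3 called claudin-like genes. The median was 0.073 for the list of Arl5 partners and trans-Golgi genes and 0.014 for p38 and MK2 genes. DESeq2 called 4 actin genes and 1 claudin-like gene, and a minimum of 10 counts gave 1 and 1. Omissions gave 0 to 1 called Arf and Arl genes (Arl11, lost in 6 of 8), 0 to 2 actin genes and 0 to 1 claudin-like genes, and p38 and MK2 medians from -0.21 to 0.0059. By transcript length, Arl5c took 19.9% and 38.5%, because its transcript is shorter. The other causes were not tested. No paired analysis was run, since the sample labels do not pair control mice with CSF1 OE mice. Depth limits Arl5c most, with 121 to 555 counts a library.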
